A study of Bos taurus with 6 samples.

Results

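The miRNAs described here are those that carry bovine names in the number ranges from bta-miR-2286 to bta-miR-2489 and from bta-miR-11970 to bta-miR-12070, which were given to miRNAs found by sequencing cattle tissues. They were chosen by name alone, with letters and arm suffixes ignored, and 44 of the 359 known Bos taurus miRNAs in the count table fell in these ranges (the table lists 706 miRNAs in all, newly predicted ones included). Of the 44, 20 lie in the lower range and 24 in the higher. The small RNAs came from extracellular vesicles (EVs) of serum from 6 female Holstein cows in mid lactation, with 1 library per cow. Diet set the groups apart for 30 days. The control group (3 cows) received a Total Mixed Ration (TMR), and the tested group (3 cows) received less alfalfa hay, with soybean hull and whole cotton seed in its place. The labels name no other treatment, and breed, sex and stage of lactation were the same in both groups. Known miRNAs had between 1226928 counts (tested cow 1) and 2088249 counts (tested cow 3) per library.

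A miRNA is a short RNA cut from a hairpin precursor, and it guides silencing proteins to mRNAs mainly through its seed, bases 2 to 8 counted from the 5′ end. Families shared by all mammals, such as let-7, are abundant in most tissues. Many miRNAs with high bovine numbers, in contrast, were found by deep sequencing of cattle samples, often at low levels, and little is known of the targets of most of them. EVs carry miRNAs of their parent cells into serum, so a serum library mixes many sources, and a lower level in fewer parent cells cannot be told apart from less of the miRNA per cell.

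The sequences of the members that the results turn on are shown as the deposited table lists them, 5′ to 3′, with T for U and with the seed in capitals. The leading pair by counts, both present in every library, were:
bta-miR-11986b: tTTTCCAAtgagttagtccttt
bta-miR-2419-5p: aTCGCATCaacactcgtctgtt
The next set is shown because it holds the most abundant members that are rich in G and C, and because bta-miR-11975 is the same sequence as bta-miR-11976 without its last base:
bta-miR-11976: gGCGGCGGcggcgccggggcg
bta-miR-11975: gGCGGCGGcggcgccggggc
bta-miR-12023: cTCCTCCCgcccccccgc
bta-miR-11985: cCCACCGCtctcctcccgcc
bta-miR-11981: cAGGGCGGgaacgggctgcggga
The last set holds bta-miR-2288, which had the smallest edgeR p of the members found in both groups, the abundant let-7 miRNA it resembles, and both arms of the hairpin of bta-miR-2411:
bta-miR-2288: aGGTAGTAggtgtgtggttt
bta-let-7b: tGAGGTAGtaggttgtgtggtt
bta-miR-2411-5p: tGGAGTGActgtcagatgcagcca
bta-miR-2411-3p: gCTGAACTgtcttactcccacatcc

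The cattle-discovered miRNAs were a minor part of the serum EV-miRNAs. Together they had 10589 of 10731042 known miRNA counts. Their share of the known miRNA counts was 0.108%, 0.0868% and 0.0760% among the 3 controls and 0.115%, 0.0781% and 0.134% among the 3 tested animals. It averaged 0.0903% ± 0.0163 (SD, n = 3) among controls and 0.109% ± 0.0283 (SD, n = 3) among tested animals. The groups overlapped, since tested cow 2 lay below control cows 1 and 2, and the difference was within the spread between cows (two-sided exact permutation test, p = 0.4, a test that cannot go below 0.1 with 3 per group). The difference was 0.0187 percentage points. As a share of the clean reads, a larger total, it turned to -0.00182 percentage points (two-sided exact permutation test, p = 0.2). These values are on different scales, so only their directions can be compared. As a share of the known miRNA counts it was 0.0116 without control cow 3, 0.0341 without tested cow 2 and 0.00629 without tested cow 3. The lowest and the highest cow differed by more than counting error, with exact binomial (Clopper-Pearson) 95% intervals of 0.0722% to 0.0799% in control cow 3 and 0.129% to 0.139% in tested cow 3, while the intervals of control cow 3 and tested cow 2 overlapped, as did those of control cow 1 and tested cow 1. These intervals cover counting error only, since PCR copies of a molecule are counted as separate reads.

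Within the group the counts were concentrated on few members. The 3 members above 1000 counts, bta-miR-11986b, bta-miR-2419-5p and bta-miR-11976, held 63.8% of the counts, 10 members had 100 to 1000 counts, 24 had 10 to 99 and 7 had fewer than 10. The 24 members with the higher numbers held 74.5% of the counts and had a median of 30.5 counts, against a median of 42.5 for the 20 members with the lower numbers. The most abundant of the higher numbers were bta-miR-11986b, bta-miR-11976 and bta-miR-12023.

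**Figure D1:**
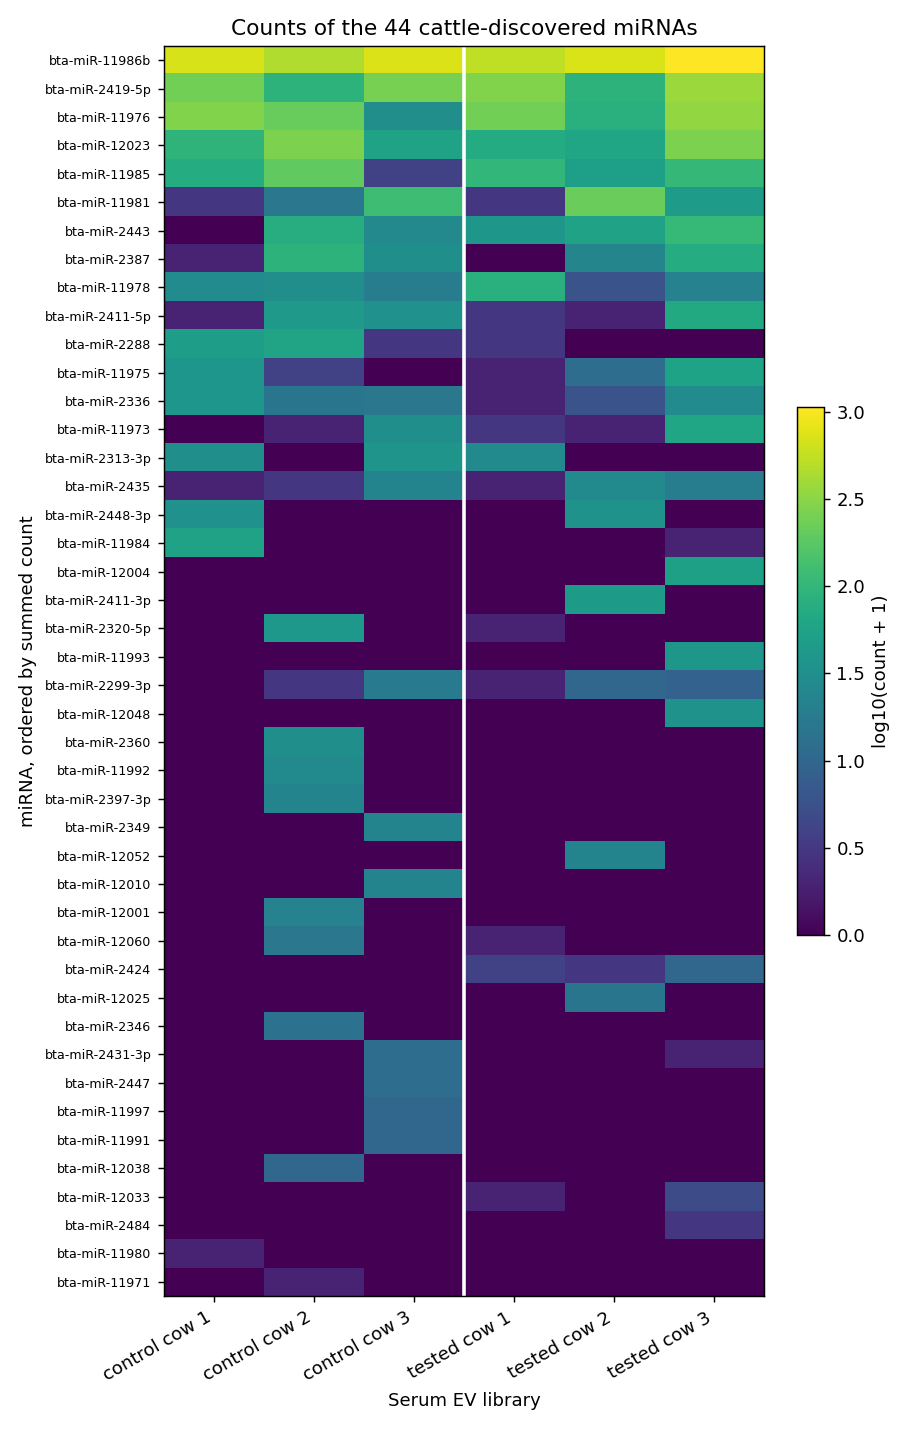
Heat map of log10(count + 1) for the 44 miRNAs (rows, ordered by summed count) in the 3 control and 3 tested libraries (columns, separated by the white line). The upper rows are filled in all libraries, and in the lower rows most miRNAs have counts in only 1 library.

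The most abundant member, bta-miR-11986b, lies within the bounds of OCLN, the gene of the tight junction protein occludin. It had 697, 462 and 736 counts among controls and 547, 714 and 1067 counts among tested animals. It led the group in each of the 6 libraries, with 26.5% to 48.7% of the group's counts, and ranked between 67 and 81 among all known miRNAs of a library. Its CPM, the count per 1000000 counts of a library after TMM scaling (which trims extreme miRNAs before libraries are matched), averaged 347 ± 107 (SD, n = 3) among controls and 420 ± 31.4 (SD, n = 3) among tested animals. Only control cow 2, at 224 CPM, stood apart from the other 5 cows, which lay between 386 and 449 CPM. Diets were compared by edgeR's quasi-likelihood test, fitted to all 623 miRNAs whose counts summed to at least 10. The log2 fold change of bta-miR-11986b, tested over control, was 0.28 (95% interval -0.61 to 1.16, edgeR adjusted p = 0.881). Leaving out control cow 2 brought it to 0.039, and leaving out control cow 1 to 0.44.

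The next most abundant, bta-miR-2419-5p, had 241, 90 and 254 counts among controls and 287, 89 and 376 among tested animals. The cow numbered 2 was the low one in each group, at 43.6 CPM and 48.2 CPM, while the other 4 cows lay between 136 and 224 CPM. Its log2 fold change was 0.40 (95% interval -1.15 to 1.95, edgeR adjusted p = 0.911). It turned to -0.073 once tested cow 1 was left out, and it was 0.023 with control cow 2 left out. These low values share only a cow number, which is not known to tie the animals together.

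**Figure D2:**
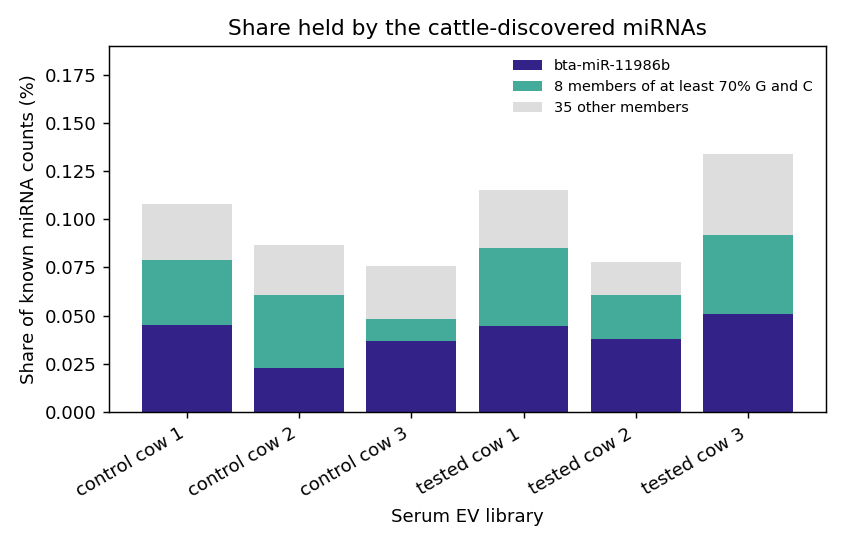
Share of the known miRNA counts (%) held by the 44 miRNAs in each library, split into bta-miR-11986b, the 8 members with at least 70% G and C, and the 35 others. The total is between 0.0760% and 0.134%, and the part of the members rich in G and C is smallest in control cow 3.

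Members rich in G and C made up a second part of the counts. A limit of 70% G and C, set after the values were seen, gave 8 members, bta-miR-11975, bta-miR-11976, bta-miR-11978, bta-miR-11980, bta-miR-11981, bta-miR-11985, bta-miR-12023 and bta-miR-2360. The 8 had 517, 757 and 226 counts among controls and 497, 426 and 846 counts among tested animals. Their share of the group's counts was 29.8% ± 14.3 (SD, n = 3) and 31.5% ± 3.26 (SD, n = 3) (two-sided exact permutation test, p = 0.9), and control cow 3 was the lowest at 14.9%. The median content of G and C was 56.8% over the 44 members, 31.8% over the 39 listed miR-2284 and miR-2285 miRNAs, the large bovine family with neighbouring numbers, and 47.6% over the other 276 known miRNAs. Over the 347 newly predicted miRNAs it was 65%, and 37.8% of them had at least 70% G and C, against 18.2% of the members. These medians are descriptions and were not tested.

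The sequence of bta-miR-11976 consists of G and C alone, and its hairpin lies within the bounds of PATZ1, the gene of a zinc finger transcription factor. It had 281, 213 and 30 counts among controls and 240, 82 and 348 among tested animals. Control cow 3 and tested cow 2 were the low ones, at 16.1 and 44.4 CPM, against 103 to 187 CPM in the other 4. For bta-miR-11985 the same cows were low, with 74, 193 and 3 counts in the control group and 100, 50 and 104 in the tested group. For bta-miR-12023, which shares the stretch ctcctcccgcc with bta-miR-11985, they were low too, with 93, 272 and 55 counts and 72, 61 and 272 counts. The opposite was seen for bta-miR-11981, whose hairpin lies within GPAM, the gene of an enzyme of triglyceride synthesis. It had 2, 15 and 120 counts among controls and 2, 217 and 45 among tested animals, so that control cow 3 and tested cow 2 were its highest. These patterns cross the diets, and the log2 fold changes were 0.38 for bta-miR-11976, 0.09 for bta-miR-11985, -0.10 for bta-miR-12023 and 0.92 for bta-miR-11981, with edgeR adjusted p between 0.911 and 0.994. The direction of each of the 4 turned when some cow was left out. They are over a shared set of 6 libraries and give no test of a relation between the miRNAs.

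Reads of bta-miR-11975 cannot be told from shortened reads of bta-miR-11976. It had 38, 3 and 0 counts among controls and 1, 11 and 56 among tested animals, against 30 to 348 for bta-miR-11976. Both have the seed GCGGCGG, which among the other listed miRNAs occurs only in a newly predicted miRNA of 18 bases, novel288_mature. That miRNA had 56, 746 and 187 counts among controls and 192, 26 and 344 among tested animals, with its highest value in control cow 2, where bta-miR-11976 had 213.

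**Figure D3:**
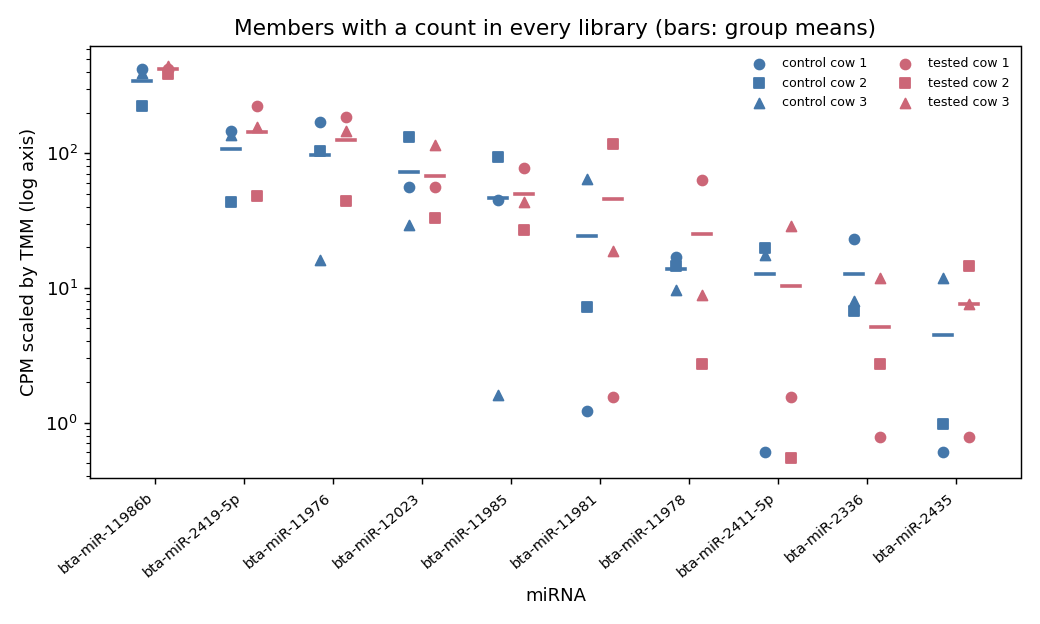
CPM scaled by TMM (log axis) of the 10 miRNAs with a count in every library, with a symbol for each cow and a bar for each group mean. The control and tested cows overlap for each of the 10.

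In all, 10 of the 44 members had a count in every library, and these 10 held 85.1% of the group's counts. Besides those above they were bta-miR-11978, bta-miR-2336, bta-miR-2411-5p and bta-miR-2435. For bta-miR-11978 the counts were 28, 30 and 18 among controls and 82, 5 and 21 among tested animals, with both the highest and the lowest value in the tested group. For bta-miR-2336 they were 38, 14 and 15 among controls and 1, 5 and 28 among tested animals. Its log2 fold change of -1.29 was the most negative of the 10 (95% interval -5.60 to 3.02, edgeR adjusted p = 0.881), and it was -0.53 without control cow 1, -0.79 without tested cow 1 and -2.76 without tested cow 3. The groups overlapped, since tested cow 3 lay above control cows 2 and 3.

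Large differences between cows of the same diet were common among the less abundant members. The log2 fold changes of bta-miR-11978 (0.87), bta-miR-2411-5p (-0.29) and bta-miR-2435 (0.78) were within their standard errors of 1.52, 2.00 and 2.29. With a cow left out they ran from -1.24 to 1.39, from -3.52 to 0.27 and from -0.081 to 3.20, so each direction turned. For bta-miR-11978 it also turned under limma (-0.11) and with the replicate block (-0.16). Both cows numbered 1 and tested cow 2 had 1 or 2 counts of bta-miR-2411-5p, while the other 3 had 33 to 69. For bta-miR-2435 there were 1, 2 and 22 counts in the control group and 1, 27 and 18 in the tested group. For bta-miR-2387 there were 1, 91 and 31 and then 0, 23 and 73, and for bta-miR-11973 0, 1 and 31 and then 2, 1 and 60. A high and a low cow thus stood in each group for all 4. The 3 other members found in 5 libraries were bta-miR-11975, bta-miR-2443 and bta-miR-2299-3p. There were 0, 77 and 26 and then 39, 55 and 106 counts of bta-miR-2443, and 0, 2 and 17 and then 1, 9 and 8 of bta-miR-2299-3p, so control cow 1 had none of either.

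Any count above 0 was taken as detection. Detected members numbered 17, 25 and 22 among controls and 20, 20 and 23 among tested animals. Their means of 21.3 ± 4.04 (SD, n = 3) and 21.0 ± 1.73 (SD, n = 3) differed by less than the spread between cows (two-sided exact permutation test, p = 1). With at least 10 counts the numbers were 12, 19 and 18 in the control group and 8, 14 and 17 in the tested group (two-sided exact permutation test, p = 0.5). A count of 0 allows up to 3 counts, which is 1.38 to 2.35 per 1000000 miRNA counts in these libraries, so a member at 0 was not detectable at this depth and need not be absent.

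The low end of the counts was uneven between libraries. The library of tested cow 1 had the fewest miRNA counts, but its 14426224 clean reads lay above those of control cows 2 and 3 and tested cow 2. In it 12 of the 20 detected members had only 1 to 3 counts, against 2 to 5 members in each other library. Of these 12, 11 had 9 or more counts in another library, and the library held no member that was found in it alone. Over all known miRNAs, tested cow 1 also had the most with 1 to 3 counts, 68 of 258, against 23 to 37 in the other libraries. It was the highest library in the summed level of the red blood cell miRNAs (bta-miR-451, bta-miR-144 and bta-miR-486) with 56961 CPM, against 14346 to 26507 CPM among controls and 7569 and 11028 CPM in the other tested cows. Each library was also thinned at random to the 1226928 known miRNA counts of tested cow 1. Detected members then averaged from 16.2 (control cow 1) to 23.8 (control cow 2). At full depth the same cows had 17 and 25. The part of depth in the members with 1 to 3 counts was not tested. Nor was the part of the red blood cell miRNAs in the detection of the members. The other marker miRNAs were present in every library, with 209 to 360 CPM (control) and 108 to 420 CPM (tested) for 4 miRNAs of white blood cells, 11.2 to 73.4 and 34.1 to 146 CPM for the 2 of platelets and vessels, 1138 to 1482 and 1036 to 1934 CPM for 3 of liver, and 76383 to 90830 and 85584 to 91953 CPM for 7 of epithelium. Tested cow 1 was also the highest library for the miRNAs of white blood cells and of liver.

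Detection in a single library was the most frequent pattern. It was found for 20 of the 44 members (45.5%), and these 20 held 3.82% of the group's counts. Of the 39 miR-2284 and miR-2285 miRNAs 43.6% were in 1 library only, and of the other 276 known miRNAs 17.0%. In each library the share of members detected, 38.6% to 56.8%, was below that of the other 276 known miRNAs, 71.4% to 80.1%, with a mean difference of -26.4 percentage points (members minus others, SD 6.48, n = 6 libraries). Against miR-2284 and miR-2285 the mean difference was 1.10 percentage points (SD 5.84, n = 6 libraries), and the members were lower in 2 libraries and higher in 4. Both differences are given as descriptions. Summed over the 6 libraries, the median was 38 counts for the members, 40 for miR-2284 and miR-2285 and 292 for the others, and the part of level in detection was not tested. Among miRNAs with 10 to 100 counts in all, 14 of 24 members (58.3%), 11 of 24 of the miR-2284 and miR-2285 miRNAs (45.8%) and 28 of 76 of the others (36.8%) had all their counts in 1 library. Of the newly predicted miRNAs at this level, 15 of 157 (9.55%) did.

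**Figure D4:**
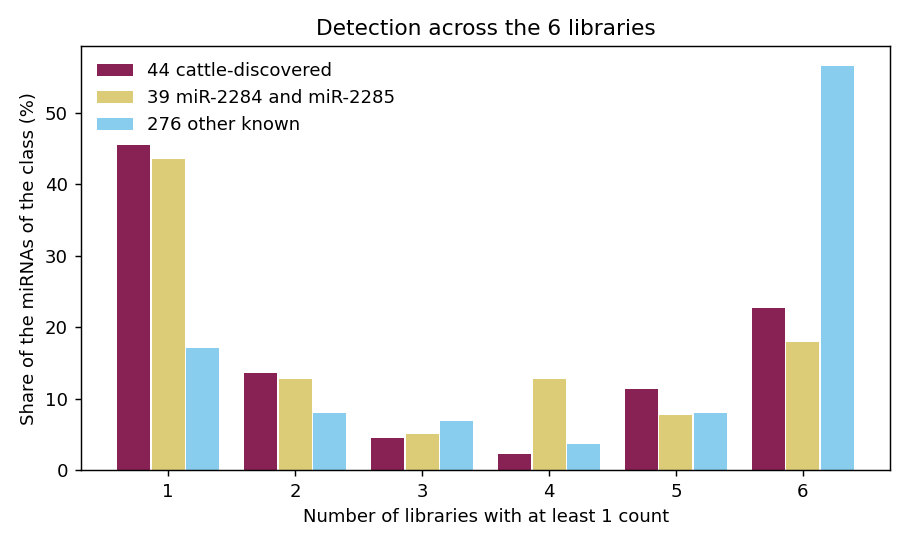
Percentage of the miRNAs of each class (y axis) by the number of libraries in which they had at least 1 count (x axis). Most members and most miR-2284 and miR-2285 miRNAs sit in few libraries, while 56.5% of the other known miRNAs were in all 6.

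The members found in a single library were spread over 5 of the 6 cows. Control cow 2 had 7 of them, control cow 3 had 5 and control cow 1 had 1, while tested cow 3 had 4, tested cow 2 had 3 and tested cow 1 had none. The highest counts were those of bta-miR-12004, whose hairpin lies within SELENOP, the gene of a selenium carrier of plasma, with 52 counts in tested cow 3. In the same cow bta-miR-11993 had 39 counts and bta-miR-12048, which lies within APLN, the gene of the peptide hormone apelin, had 34. Control cow 2 had 31 counts of bta-miR-2360, 27 of bta-miR-11992, 22 of bta-miR-2397-3p, 21 of bta-miR-12001, 13 of bta-miR-2346, 9 of bta-miR-12038 and 1 of bta-miR-11971. In control cow 3 there were 22 counts of each of bta-miR-12010 and bta-miR-2349, 11 of bta-miR-2447 and 9 of each of bta-miR-11991 and bta-miR-11997. Tested cow 2 had 44 counts of bta-miR-2411-3p, 22 of bta-miR-12052 and 14 of bta-miR-12025. The remaining ones were bta-miR-2484 with 2 counts in tested cow 3 and bta-miR-11980 with 1 count in control cow 1. So 17 of the 20 had at least 9 counts in their library, 3 had 1 or 2, and none had 3 to 8.

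Both arms of a hairpin were listed for bta-miR-2411 alone, and their counts did not follow each other. The 5p arm had 1, 41 and 33 counts among controls and 2, 1 and 69 counts among tested animals, while the 3p arm had 44 counts in tested cow 2 and 0 in the other 5 cows. In tested cow 2 the 5p arm had 1 count. The seed of the 3p arm, CTGAACT, is also that of bta-miR-345-3p, which had 0, 1 and 23 counts among controls and 0, 0 and 29 among tested animals.

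By diet, 22 members had counts in both groups, 13 among controls alone and 9 among tested animals alone. Of the members found in both groups and tested, bta-miR-2288 had the smallest unadjusted p. It had 47, 58 and 2 counts among controls and 2, 0 and 0 counts among tested animals, so that control cow 3 and tested cow 1 were level at 2 counts. The ratio of control to tested was 50.4 on counts scaled by library size, with a 95% counting interval of 13.6 to 422. That ratio rests on control cows 1 and 2 and on 2 counts in tested cow 1. Its log2 fold change of -5.16 did not pass the test (95% interval -10.6 to 0.29, edgeR unadjusted p of 0.0616, adjusted p = 0.448), and the exact permutation test on CPM gave p = 0.2. As the sequences above show, it lies 2 edits from a stretch of bta-let-7b, shifted so that the seeds differ. How reads matching both were assigned is not given in the sources used here, so the counts and the ratio of bta-miR-2288 may depend on that step, which was not tested. The miRNA bta-let-7b itself had 151650, 242840 and 248433 counts among controls and 127068, 209417 and 228144 among tested animals.

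A similar ratio carried by a single cow was seen for bta-miR-11984, with 54 counts in control cow 1, 1 count in tested cow 3 and 0 in the rest (ratio 50.9, 95% counting interval 8.76 to 2048). For bta-miR-2320-5p there were 40 counts in control cow 2 and 1 in tested cow 1 (ratio 37.7, 6.39 to 1526). For bta-miR-12060, within ALDOA, the gene of a glycolytic enzyme, control cow 2 had 15 counts and tested cow 1 had 1 (ratio 14.1, 2.18 to 595). For bta-miR-2431-3p control cow 3 had 11 counts and tested cow 3 had 1 (ratio 10.4, 1.51 to 446). Each of these ratios rests on a single control cow, and the counting intervals leave out the spread between cows. The edgeR 95% intervals of the log2 fold changes of these members all held 0 (edgeR adjusted p between 0.449 and 0.704). Both bta-miR-2313-3p (31, 0 and 36 counts among controls and 27, 0 and 0 among tested animals) and bta-miR-2448-3p (33, 0 and 0, then 0, 35 and 0) were high in some cows and at 0 in others of the same diet.

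The only member whose groups did not overlap was bta-miR-2424, with 0 counts in every control cow and 3, 2 and 9 counts among tested animals. Against a floor of 3 counts over the control group it was at least 4.95-fold higher in the tested group (exact permutation test on CPM, p = 0.1, edgeR adjusted p = 0.448). Its hairpin lies within NCAPD2, the gene of a condensin subunit. Below the limit of 10 counts for the test, bta-miR-12033 was also found in tested cows alone, with 1, 0 and 4 counts. Of the 37 members tested, 1 (bta-miR-2424) thus had groups that did not overlap, whereas over all 623 miRNAs tested this share was 10.8%. For the 15 tested members with no count in a group, such bounds on pooled counts ran from 3.46-fold to 18.4-fold. They too leave out the spread between cows, and 14 of the 15 had their counts in a single cow.

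In the edgeR test no member combined an unadjusted p below 0.05 with a log2 fold change beyond 1 in either direction, the threshold used. Of the 44 members 37 had at least 10 counts in all and entered the test, and the other 7 were not tested. The edgeR test called 0 of the 37, while 3.21% of all 623 miRNAs were called. At an unadjusted p below 0.05 alone it was also 0 of 37, against 4.65% of all. The unadjusted p of the members ran from 0.0614 (bta-miR-2424) to 0.980 (bta-miR-2448-3p), and the adjusted p from 0.448 to 0.994. With limma the count was 0 of 37, where 2.41% of all were called, and with DESeq2 it was 1 of 37, bta-miR-2288, where 4.17% of all were called. For bta-miR-2288 DESeq2 gave a log2 fold change of -5.44 with an unadjusted p of 0.0102, and it also passed in edgeR without control cow 3 (unadjusted p of 0.0420) or without tested cow 1 (0.0295), the cows with 2 counts each. A p above the threshold does not show that the groups were alike, and the intervals above are wide.

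The fitted log2 fold change was above 0 for 17 and below 0 for 20 of the 37 members, with a median of -0.10, beside a median of 0.07 over all 623 miRNAs, 333 of them above 0. Their median absolute log2 fold change was 3.19, beside 2.70 for the 34 tested miR-2284 and miR-2285 miRNAs and 1.01 for all 623. Many of these values belong to members with counts in 1 cow only, for which the fitted value depends on the small count added to each group. For the 10 members found in every library the range was -1.29 to 0.92.

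**Figure D5:**
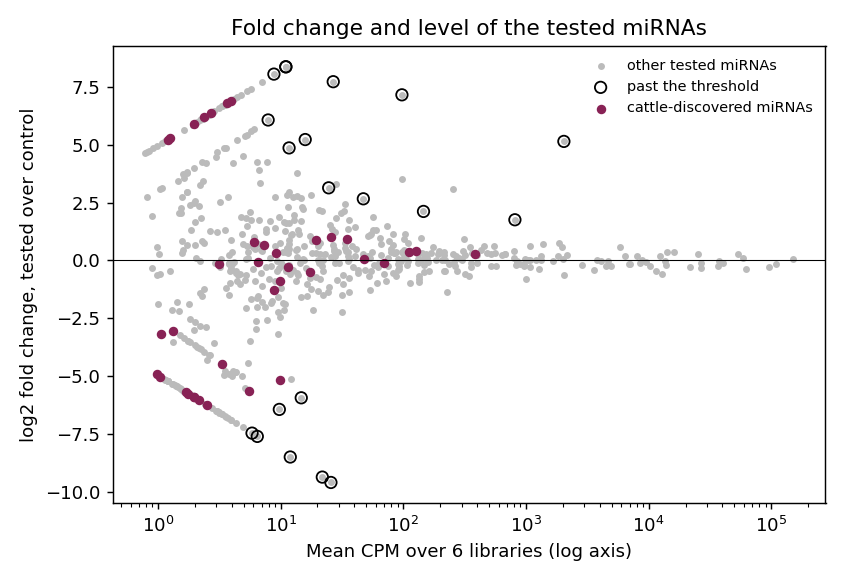
Log2 fold change of edgeR (tested over control) against mean CPM (log axis) for the 623 tested miRNAs, with the 37 tested members in colour and rings around the 20 miRNAs past the threshold. No member carries a ring, and the members far from 0 have low CPM. Most of them lie on the slanted lines of miRNAs with counts in 1 group only.

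In the RefSeq annotation of assembly ARS-UCD2.0, all 44 members matched a miRNA gene by name, and the hairpin of 40 of them (90.9%) lies within the bounds of another gene. The share was 68.4% for the 38 matched miR-2284 and miR-2285 miRNAs and 72.2% for the 273 other known miRNAs that matched. The annotation table gives the bounds of genes without strand, exons or introns, and it is of a later assembly than that of the authors, so no positions are given. The members outside other genes were bta-miR-11997, bta-miR-2336, bta-miR-2419-5p and bta-miR-2448-3p. Further genes around members were MIA3 for bta-miR-11975, COBLL1 for bta-miR-11978, PARVB for bta-miR-11985, GPR137 for bta-miR-12023, CPNE4 for bta-miR-2288 and UBAP2L for bta-miR-2411. The mRNAs of these genes were not measured.

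The 44 members had 43 different seeds, and 4 of them (9.09%) shared a seed with another known miRNA, compared with 48.7% of miR-2284 and miR-2285, 34.4% of the other known miRNAs and 9.80% of the 347 newly predicted ones. The 4 were bta-miR-11975 and bta-miR-11976, which share theirs with each other, bta-miR-2411-3p, and bta-miR-11971, which had 1 count in all. The last lies within 2 edits of bta-miR-423-5p, named after its values were seen, which had 51142 counts in the same library, control cow 2. Newly predicted miRNAs also share the seeds of bta-miR-2443 (novel37_mature, 282 counts in all) and bta-miR-12048 (novel66_mature with 176 and novel269_mature with 22). In length the members ran from 18 to 25 nt with a median of 22 nt, the same median as in the other 2 classes of known miRNAs.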

How the data were processed

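Small RNAs of serum EVs from 6 cows, 3 per group, were sequenced. The authors kept trimmed reads of good quality, mapped them to the bovine genome (ARS-UCD1.2, with cutadapt 1.14 and Bowtie in the submitters' processing notes), set other RNA classes aside and assigned miRNAs from miRBase. They deposited raw counts per miRNA and library, and the counting tool is not given in the sources used here. A second deposited table, labelled TPM, holds RPM values, since each equals the count divided by the clean reads of its library, and it was used for those totals only. Its columns of fold changes and p-values, and the deposited list of called miRNAs, were not used.

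The main test was edgeR 4.0.16 in R 4.3.3 (TMM, estimateDisp, glmQLFit, glmQLFTest) on the 623 miRNAs with at least 10 counts over the 6 libraries, with Benjamini-Hochberg adjustment over all 623. Standard errors and intervals were derived from the F statistic. Alternatives were DESeq2 1.42.0, limma 3.58.1 on log2(CPM + 1), other factors and filters, robust estimation, a replicate block and each library left out. The fit was tested on simulated data. Python 3.11.15 with SciPy 1.17.1 gave the permutation tests. Every member was eligible to be named, as were miRNAs sharing a member's seed or lying within 2 edits of it. The members, lists and threshold were chosen with earlier results of these data known. Depth ran from 1277693 to 2176002 counts per library. No library was found to be a copy of another, and none was merged. The p-values rest on single samples of 3 cows per group.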

Additional observations from a re-analysis of the deposited data

How the results depend on the processing

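The count of members past the threshold was 0 with edgeR and 0 under limma, known miRNAs only, both other scalings (RLE or none), both other filters (none or filterByExpr), robust estimation and the replicate block. The filterByExpr filter left bta-miR-2288 out of the test. The count was 1 with DESeq2, bta-miR-2288, and ran from 0 to 1 with each cow left out. The difference in the share of known miRNA counts, 0.0187 percentage points, was 0.00629 to 0.0341 with a cow left out. As a share of the clean reads, on another scale, it turned to -0.00182 percentage points (two-sided exact permutation test, p = 0.2). The difference in detected members, -0.333, ran from -2.5 to 1.5 with a cow left out, above 0 when control cow 2 or either of tested cows 1 and 2 was dropped, and 0 when control cow 3 was. It was -2, -2.67 and -3.33 at minimum counts of 2, 5 and 10, and -0.213 in thinned libraries. Among the 11 members with a log2 fold change given, the sign turned with some cow left out for bta-miR-11976 (-0.13 to 1.07), bta-miR-11978 (-1.24 to 1.39), bta-miR-11981 (-1.23 to 3.45), bta-miR-11985 (-0.49 to 1.11), bta-miR-12023 (-0.69 to 0.62), bta-miR-2411-5p (-3.52 to 0.27), bta-miR-2419-5p (-0.073 to 0.81) and bta-miR-2435 (-0.081 to 3.20). For bta-miR-11978 it also turned under limma (-0.11) and under the replicate block (-0.16). The cause was not tested. The sign held under the alternatives run for bta-miR-11986b, bta-miR-2336 and bta-miR-2288, but with a cow left out their values ran from 0.039 to 0.44, from -2.76 to -0.53 and from -8.24 to -4.56. No pairing of the samples by cow number was seen. Deviations from the group mean correlated at -0.0581, -0.0476 and -0.0190 over miRNAs for the 3 pairs, and no cow was most like the cow of its own number. All correlations between a control and a tested cow lay from -0.0605 to 0.106, and values this near 0 cannot decide whether the cows were paired.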

Other observations

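Counts of 3 to 8 were missing among known miRNAs found in a single library, in each class of known names. Of the 84 such miRNAs, 57 had 9 or more counts and 27 had 1 or 2, and the 20 members among them had 17 and 3. Newly predicted miRNAs in a single library had 2 of 25 with 3 to 8 counts. Counts of 4 to 8 did occur for known miRNAs found in several libraries, 8 to 14 miRNAs per library.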
